A study of Sus scrofa with 12 samples.

Results

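IPEC-J2 is an established pig cell line from the epithelium of the small intestine. In its deposited values 77 genes kept nearly the same abundance with and without deoxyshikonin and at both time points. Which genes did so depended on how the libraries were scaled. The cells were left untreated or exposed to deoxyshikonin, a naphthoquinone from plant roots, at 5 µmol/L, and RNA was sequenced from 3 libraries each of control cells at 6 h, treated cells at 6 h, control cells at 24 h and treated cells at 24 h. All groups share the cell line, and the labels name no genetic change and no vehicle in the controls. Nothing in the labels says whether the 3 libraries of a group came from separate cultures, so their spread may be technical. Abundance is given as TPM, a transcript abundance scaled by gene length and by the library total. TPM does not keep the number of reads, so depth is not known here.

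The stable genes were chosen from the measured values. Of 32518 identifiers in the table, 31908 are Ensembl pig genes, and 4763 of those had a mean between 20 and 500 TPM over the 12 libraries. The mean of log2(TPM + 1) was taken in each of the 4 groups, and the distance from the lowest to the highest group mean is called the range. A gene was kept when its range was under 0.15, which is a fold of 1.11. This held for 77 genes, 1.62% of the 4763. A symbol was found for 68 of them in a table of pig gene names, and 9 are given by identifier. Since the group means chose these genes, their small differences are a description and not a result of a test.

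Genes whose transcripts stay level through a treatment serve as reference genes, against which other transcripts are measured by quantitative PCR. Many of the genes commonly used this way encode cytoskeletal, glycolytic, ribosomal or ubiquitin proteins, and these can themselves respond when cells are stressed or stop dividing. TPM is a relative measure, so a level TPM means a constant share of the library and not a constant number of transcripts per cell. In a bulk library a change in the number of cells and in the RNA per cell cannot be told apart.

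The libraries carried epithelial transcripts. KRT8 ranged from 1155 to 2336 TPM, CDH1 from 518 to 702 TPM and EPCAM from 187 to 511 TPM, while VIL1, a brush border protein, reached only 3.6 TPM. The 10 epithelial markers found summed to 5713 to 5870 TPM in control and 4267 to 4472 TPM in treated cells at 6 h, and to 6262 to 6500 TPM and 6374 to 6551 TPM at 24 h. Markers of other cell types were far lower, and PTPRC (at most 0.05 TPM), DCN (0.14 TPM) and KDR (0.03 TPM) were at or near 0, but their lists moved with the groups. The 5 leukocyte markers summed to between 1.23 and 2.1 TPM in control libraries and between 7.12 and 9.47 TPM in treated ones, nearly all from CD14 and CD68. The 4 endothelial markers, nearly all PECAM1, summed to 10.8 to 15.6 TPM in control and 20.3 to 25.1 TPM in treated cells at 6 h, and to 9.45 to 13.9 TPM and 11.1 to 17.2 TPM at 24 h. The 6 fibroblast markers, mostly COL1A1, summed to 9.53 to 9.95 TPM and 5.86 to 6.88 TPM at 6 h, and to 7.83 to 8.65 TPM and 3.28 to 3.94 TPM at 24 h, controls first. Their part in the values of the stable genes was not tested. Between 18452 and 19953 identifiers were above 0 in a library.

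The stable genes covered most of the allowed abundance. Their mean TPM ran from 20.01 TPM upward, with a median of 50.5 TPM, against a median of 44.6 TPM for the other 4686 genes in the same abundance window. Of the 77, 37 lay below 50 TPM (48.1%, against 55.8% of the window) and 14 lay at or above 100 TPM (18.2%, against 20.01% of the window). The median range was 0.11, against 0.69 over all 4763 genes, a typical fold of 1.62 between the highest and the lowest group. In 27 genes the range was under 0.10, in 5 of these under 0.05, and in the remaining 50 it lay between 0.10 and 0.15. No single library of any of the 77 genes was far off: the highest of the 12 TPM values was between 1.09 and 1.29 times the lowest. Among the other genes of the window this ratio had a median of 1.83. The rule bounds the group means and favours genes with little noise, so this gap is not read as a result.

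**Figure D1:**
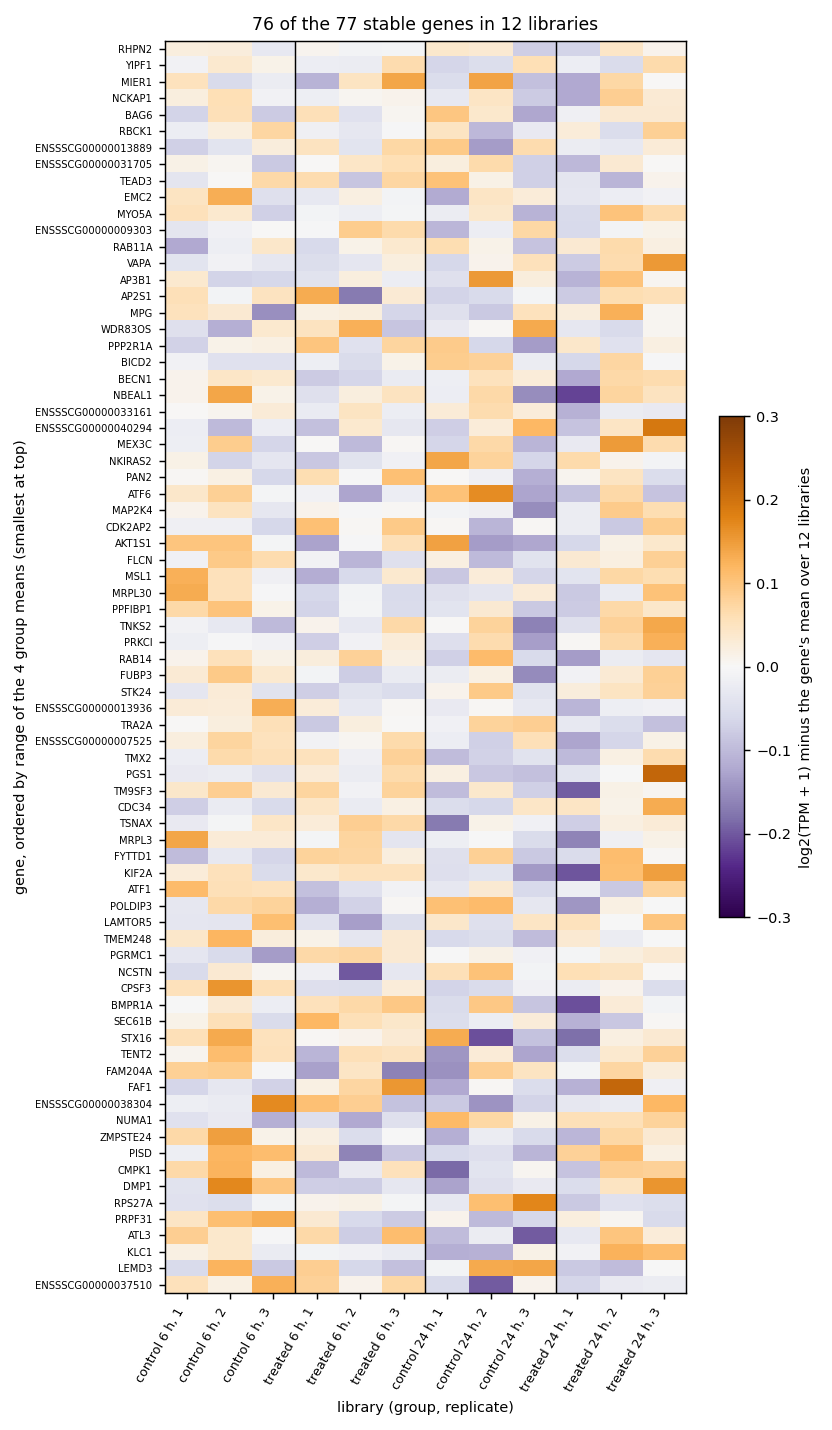
Each row is one of 76 stable genes and each column a library, and the colour gives log2(TPM + 1) minus the gene's mean over the 12 libraries, from -0.3 to 0.3. The median deviation of a library is at most 0.03, and it is lowest in replicate 1 of treated cells at 24 h (-0.05).

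The gene with the smallest range was RHPN2, which encodes a protein linked to the actin cytoskeleton. Its TPM was 98.2, 98.4 and 94.7 in control cells at 6 h, 97.2, 96.1 and 96.2 in treated cells at 6 h, 99.2, 99.0 and 91.8 in control cells at 24 h, and 92.3, 99.6 and 97.3 in treated cells at 24 h. All groups overlap, and the range of 0.01 was smaller than the replicate SD of 0.045 on the same scale. The difference between treated and control cells was -0.01 at 6 h, with a 95% interval from -0.10 to 0.08, and -0.0038 at 24 h, with an interval from -0.10 to 0.09. YIPF1, a membrane protein of the Golgi, had 44.4, 45.8 and 45.1 TPM without and 44.1, 44.0 and 46.7 TPM with deoxyshikonin at 6 h. At 24 h it had 42.7, 43.1 and 46.6 TPM without and 44.1, 43.0 and 46.8 TPM with deoxyshikonin. Its groups also overlap, with a range of 0.03. Next came MIER1, a transcriptional repressor that works with histone deacetylases, with 20.1 to 21.8 TPM and 19.4 to 23.2 TPM at 6 h, and 19.6 to 23.3 TPM and 19.2 to 22.1 TPM at 24 h, controls first. Its range was 0.04, but its replicate SD, 0.11, was among the 3 largest of the 77 genes, so the agreement of its group means is looser than the range alone shows. It was followed by NCKAP1, a subunit of the actin-nucleating WAVE complex (range 0.04, mean 121 TPM), BAG6, a chaperone that sorts newly made membrane proteins (range 0.05, mean 71.2 TPM), and RBCK1, a subunit of the linear ubiquitin ligase (range 0.05, mean 27.7 TPM). ENSSSCG00000013889 and ENSSSCG00000031705, which have no symbol, followed at 0.06 each.

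Among the most abundant stable genes were ENSSSCG00000009303, with a mean of 429 TPM, ENSSSCG00000037510 with 407 TPM, and RAB11A, a GTPase of recycling endosomes, with 376 TPM. RAB11A had 346, 372 and 387 TPM without and 361, 379 and 385 TPM with deoxyshikonin at 6 h. At 24 h it had 393, 379 and 354 TPM without and 385, 394 and 381 TPM with deoxyshikonin. The 4 groups overlap, and the differences between treated and control cells were 0.03 at 6 h (95% interval -0.08 to 0.14) and 0.04 at 24 h (-0.06 to 0.15).

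**Figure D2:**
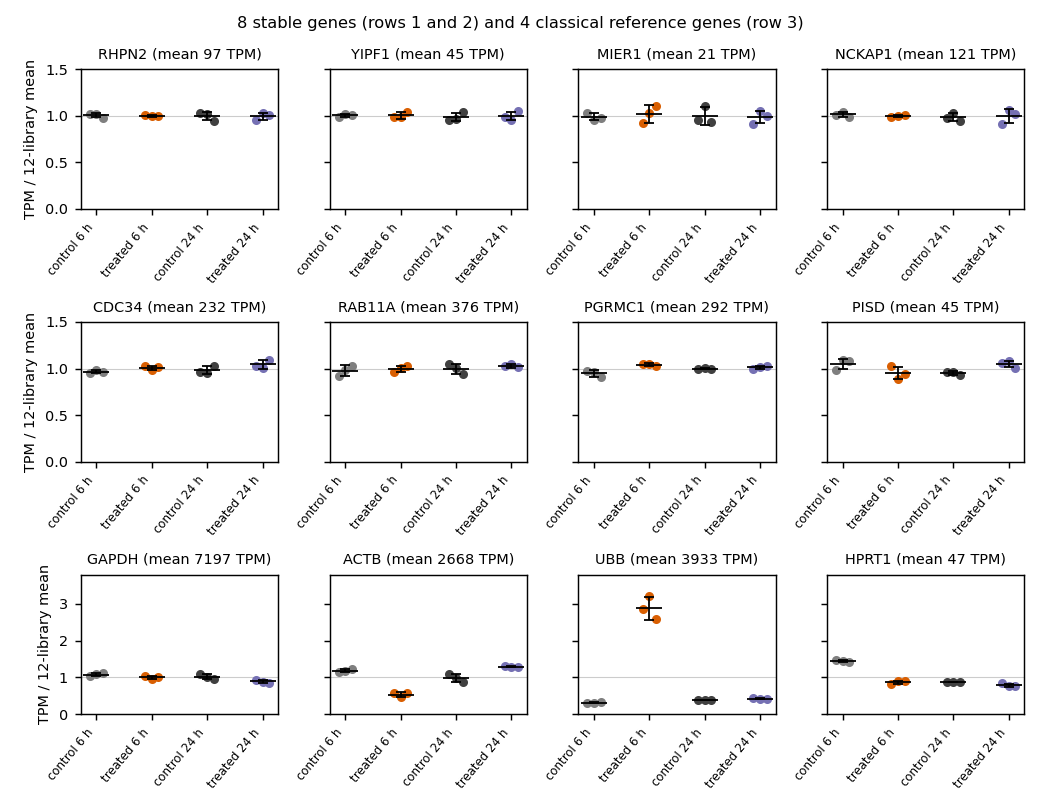
TPM in each library divided by the gene's mean over the 12 libraries, for 8 stable genes in the first rows and 4 classical reference genes in the last row, whose axis is longer. Points are libraries, horizontal bars are group means and error bars are the SD of 3 libraries. RHPN2 stays within 91.8 to 99.6 TPM, whereas UBB climbs from a mean of 1220 to 11337 TPM at 6 h.

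By what their products do, the 68 named genes were sorted after their names were known, so the size of a group says nothing about enrichment. The largest group, 13 genes, acts in membrane traffic and the endoplasmic reticulum, with ranges from 0.03 to 0.15. Besides YIPF1 and RAB11A it holds RAB14, another endosomal GTPase, AP2S1 and AP3B1, subunits of adaptor complexes that select vesicle cargo, STX16, a SNARE of the Golgi, and TM9SF3. Its genes of the endoplasmic reticulum are SEC61B, a subunit of the protein-conducting channel, EMC2 and WDR83OS, which help membrane proteins insert, VAPA, which tethers the reticulum to other organelles, ATL3, which fuses its tubules, and TMX2. SEC61B had one of the larger ranges, 0.14, with its highest mean in treated cells at 6 h and its lowest in treated cells at 24 h. STX16 had the 95% interval that reached farthest from 0 among the 77 genes, to 0.32 in size. Its replicate SD was 0.11, with 33.9 to 43.2 TPM among the controls at 24 h alone.

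Signalling proteins made up 10 genes, with ranges from 0.08 to 0.14. They include 3 regulators of the growth kinase complex mTORC1, namely AKT1S1, which inhibits it, FLCN, which acts on the GTPases that recruit it to the lysosome, and LAMTOR5, a subunit of its lysosomal anchor. The group also holds the kinases MAP2K4, which activates the stress kinase JNK, STK24 and PRKCI, an atypical protein kinase C of epithelial polarity, the receptor BMPR1A, the phosphatase scaffold PPP2R1A, the poly-ADP-ribosylating enzyme TNKS2, and NKIRAS2, an inhibitor of NF-kappa-B signalling. PPP2R1A was the most abundant, at 153 TPM. Transcription and chromatin genes were MIER1, ATF1, TEAD3, an effector of the Hippo pathway, MSL1, a subunit of a histone acetyltransferase complex, and ATF6, a sensor of unfolded protein in the endoplasmic reticulum. The transcript of ATF6 had 59.8 to 63.8 TPM without and 55.0 to 59.7 TPM with deoxyshikonin at 6 h, and 55.0 to 67.6 TPM and 56.4 to 63.1 TPM at 24 h. ATF6 is switched on by cleavage of its protein, which RNA abundance does not measure.

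RNA processing and turnover gave 10 genes with ranges from 0.10 to 0.15. PRPF31 is a core splicing factor and TRA2A a splicing regulator, CPSF3 cuts pre-mRNA before the poly(A) tail is added, and FYTTD1 and POLDIP3 act in mRNA export. PAN2 shortens poly(A) tails and TENT2 lengthens them, while MEX3C, FUBP3 and TSNAX bind RNA or single-stranded nucleic acid. The cytoskeleton and motor group had 8 genes. Next to RHPN2 and NCKAP1 it holds KLC1 and KIF2A of the kinesins, MYO5A, a myosin that carries vesicles, BICD2, an adaptor of dynein, NUMA1, which organises spindle poles, and PPFIBP1, a liprin. Protein quality control and proteolysis had 7 genes, BAG6, RBCK1, CDC34 and FAF1 of the ubiquitin system, BECN1 of autophagy, NCSTN of gamma-secretase and ZMPSTE24, which matures lamin A. CDC34, a ubiquitin-conjugating enzyme, was the most abundant of them at 232 TPM. A group of lipids, nucleotides and DNA held PISD and PGS1 of phospholipid synthesis, CMPK1 of pyrimidine nucleotides, the DNA glycosylase MPG and the haem-binding protein PGRMC1. LEMD3 of the inner nuclear membrane, TMEM248, FAM204A, NBEAL1, CDK2AP2 and DMP1, so named in the symbol table, were left outside these groups.

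The ranges of the 9 genes without a symbol ran from 0.06 to 0.15 and their means from 21.3 to 429 TPM. Beyond those already given they are ENSSSCG00000033161, ENSSSCG00000040294, ENSSSCG00000013936, ENSSSCG00000007525 and ENSSSCG00000038304.

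Gene families were then read from 14 lists of symbols. The classical reference list had 28 symbols, of which 21 were in the table, 11 within 20 to 500 TPM, and 0 were stable by the rule. The rule kept 1.62% of all genes in that window, so 0 of 11 is not read as a result. The median range of the 11 was 0.71, beside 0.69 over the window. The 21 ranges ran from 0.19 for RPS18 to 3.21 for UBB among the genes named here, with a median of 0.64, and 5 exceeded 1. Over the genes of the window the upper quartile of the range was 1.05. ACTB, cytoplasmic actin, had 3039, 3153 and 3314 TPM without and 1512, 1234 and 1514 TPM with deoxyshikonin at 6 h, without overlap. By limma, treated cells differed from controls by -1.16 log2 units at 6 h (adjusted p = 3.18e-07, SE 0.09). At 24 h they stood 0.39 above (adjusted p = 0.00352 by limma, SE 0.09). UBB, a polyubiquitin gene, was 9.29 times as high in treated as in control cells at 6 h and 1.08 times at 24 h. GAPDH, a glycolytic enzyme, changed less, with a range of 0.28. Its difference at 6 h was -0.11 with TPM as deposited (SE 0.06, adjusted p = 0.0999 by limma), -0.26 after quantile normalization and 0.05 after the median-of-ratios rescaling described further on, a change of sign. At 24 h it was -0.19 (SE 0.06, adjusted p = 0.0137 by limma) and below 0 under those scalings too. Of the 21, 16 passed the test at 6 h, 6 higher and 10 lower in treated cells, and 14 at 24 h, 8 higher and 6 lower. With median-of-ratios rescaling 9 were higher and 8 lower at 6 h, and 6 higher and 7 lower at 24 h. The median change was -0.11 at 6 h and 0.08 at 24 h, against -0.20 and 0.09 over all 11897 genes tested. It was 0.05 and -0.0023 after that rescaling, so its sign depended on the scaling at both times. The share of these 11897 genes called was 75.4% at 6 h and 50.3% at 24 h. These reference genes were singled out after their values were seen.

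**Figure D3:**
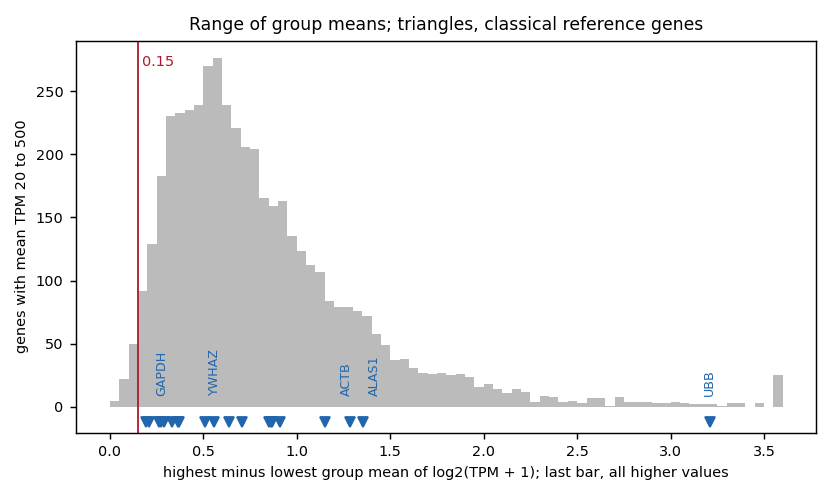
Number of genes with a mean of 20 to 500 TPM by the range of their 4 group means, in bars 0.05 wide, with the threshold of 0.15 as a vertical line and 20 of the classical reference genes as triangles, 9 of which have means outside 20 to 500 TPM. The 77 stable genes are the bars left of the line, and all triangles lie to the right of it, from 0.19 to 3.21.

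Among the other lists, 5 stable genes were found. The rule kept 1.62% of all genes in the window, so a count of 0 in a list is not read as a result. The cytosolic ribosome gave 2, RPS27A among them, of 7 genes in the abundance window, the mitochondrial ribosome gave MRPL3 and MRPL30 of 53, and splicing gave PRPF31 of 36. The proteasome (34 genes in the window), respiratory chain and ATP synthase (54), translation initiation (37), chaperonin (6), vesicle coats and transport (39), vacuolar ATPase (12), ubiquitin conjugation (22), RNA polymerase II and Mediator (21), nuclear pore (14) and aminoacyl-tRNA synthetase (20) lists gave 0. The median range in the window was lowest for the cytosolic ribosome, 0.38, and highest for the proteasome, 0.96, beside 0.69 over all genes of the window. Most cytosolic ribosomal genes were too abundant for the rule. Of 43 with a mean above 500 TPM, 20 had a range under 0.15, and the median range of the 43 was 0.15, from 0.05 to 0.48. After median-of-ratios rescaling 3 of the 43 had a range under 0.15, and the median range of the 43 was 0.25. The share of all genes above 500 TPM with such a range was not taken. The share of 1.62% belongs to the window below 500 TPM, so these counts are not read as a result.

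The ribosomal members can share reads with processed pseudogenes, so their values are uncertain to that extent. RPS27A, which encodes a ribosomal protein fused to ubiquitin, had 253, 252 and 259 TPM without and 263, 264 and 260 TPM with deoxyshikonin at 6 h, just without overlap. At 24 h the 3 controls had 256, 282 and 295 TPM and the treated libraries 247, 253 and 252 TPM, again without overlap, so the controls at 24 h were the high group. MRPL30 had 54.7 to 60.1 TPM without and 52.4 to 54.4 TPM with deoxyshikonin at 6 h, without overlap, and 53.0 to 55.9 TPM and 51.7 to 59.0 TPM at 24 h. MRPL3 had 51.5 to 55.6 TPM and 49.2 to 53.2 TPM at 6 h, and 48.5 to 50.3 TPM and 45.0 to 51.0 TPM at 24 h, with overlap at both times.

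Replicate spread set the scale on which these genes can be called level. The pooled SD within groups had a median of 0.064 log2 units over the 77 genes, from 0.032 to 0.108, and of 0.076 over the other genes of the window. The rule itself favours genes with little noise, and this difference is not read as a result. The range was smaller than the replicate SD in 13 of the 77 genes. The median ratio of range to SD was 1.64, against 9.35 in the other window genes. Since the rule bounds the range, this gap is not read as a result either. The 3 smallest SDs were those of PGRMC1 (0.032), ENSSSCG00000033161 (0.035) and TMEM248 (0.036), and the 3 largest those of STX16, NBEAL1 and MIER1. NBEAL1, a BEACH-domain protein, had 20.6, 25.4 and 24.99 TPM in treated cells at 24 h and the largest ratio of highest to lowest library, 1.29.

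**Figure D4:**
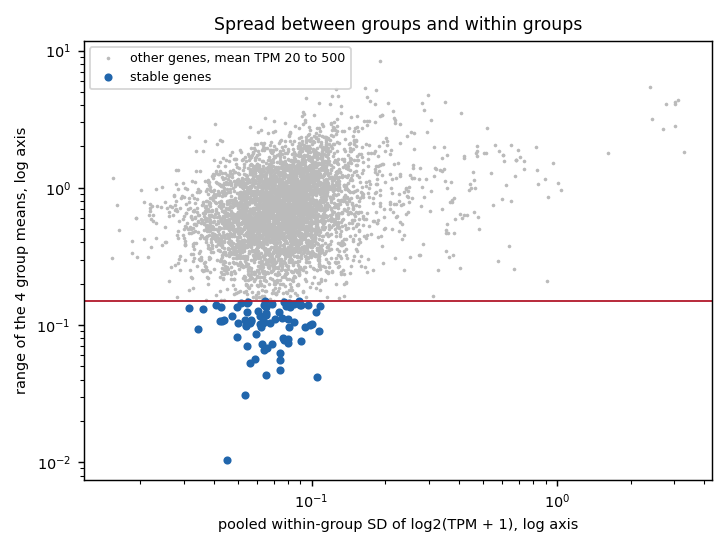
Each point is a gene with a mean of 20 to 500 TPM, placed by its pooled within-group SD (horizontal, log axis) and the range of its group means (vertical, log axis), with stable genes as large points below the line at 0.15. The stable genes span SDs from 0.032 to 0.108, inside the bulk of the other genes.

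As a description of precision, 95% intervals were taken from one limma fit over all 11897 genes with a mean of at least 1 TPM. For a difference between any pair of groups the half-width of the interval had a median of 0.12 over the stable genes. Over all tested genes it was 0.17, but these reach down to a mean of 1 TPM, below the abundance window of the stable genes. The rule also favours genes with little noise, so the gap between these medians is not read as a result. The largest half-width over the stable genes was 0.18. Since the rule kept every difference between group means under 0.15, the place of these intervals near 0 was set by the choice of genes, and their width is what they add. The interval bounds of RHPN2 stayed closest to 0, reaching 0.10.

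Small differences were nevertheless called in some of these genes. The limma fit called a gene when its p-value, adjusted over 11897 genes by the Benjamini-Hochberg method, was under 0.05. Between treated and control cells at 6 h it called 5 of the 77 (1 higher, 4 lower), beside 75.4% of all tested genes (26.6% higher, 48.7% lower). The fit called 2 at 24 h (1 higher, 1 lower), beside 50.3% (32.2% higher, 18.1% lower). Between 24 h and 6 h, 7 differed in control cells (2 higher, 5 lower), beside 56.4% (22.2% higher, 34.2% lower). In treated cells 5 differed (4 higher, 1 lower), beside 75% (46.8% higher, 28.2% lower). The treatment effect differed between the times for 8 (6 with a more positive effect at 24 h, 2 with a more negative one), beside 63% (45% and 18%). The rule bounded all of these differences, so nothing is read from the gap between the counts and the shares. At least one of the 5 tests called 17 of the 77 genes, and 60 were called by none.

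The genes called show how narrow these differences were. PGRMC1 had 285, 280 and 266 TPM without and 306, 307 and 299 TPM with deoxyshikonin at 6 h, without overlap, and a difference of 0.13 (95% interval 0.06 to 0.21). At 24 h it had 292, 295 and 289 TPM without and 291, 296 and 299 TPM with deoxyshikonin, with overlap. PISD, which makes phosphatidylethanolamine in mitochondria, had 44.4, 49.0 and 48.6 TPM without and 46.1, 40.1 and 42.4 TPM with deoxyshikonin at 6 h, with overlap. At 24 h the order was the opposite, with 43.1, 43.5 and 41.7 TPM without and 47.6, 48.6 and 45.5 TPM with deoxyshikonin, without overlap. The differences were -0.14 (95% interval -0.27 to -0.02) and 0.14 (0.01 to 0.27). At 24 h PISD was not among the genes called, although its interval, which is not adjusted for the number of genes, leaves out 0. PRPF31 had 46.0, 48.0 and 48.8 TPM in controls at 6 h, above the 42.1 to 45.6 TPM of treated cells at 6 h and the 41.4 to 44.8 TPM of controls at 24 h. PISD, PRPF31 and RPS27A were each called in 3 of the 5 tests, more than any other stable gene.

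The counts of called genes were small and moved with single libraries. Over all 11897 tested genes, the fits without a library called 8571 to 9056 at 6 h and 4970 to 6134 at 24 h. They called 7071 to 7465 in the interaction, 5889 to 6856 over time in controls and 8512 to 8984 over time in treated cells. Without control replicate 2 at 6 h, 1 stable gene was called between treated and control cells at 6 h, and without control replicate 3 or treated replicate 2 at 6 h, 2 were. At 24 h the count rose to 4 without treated replicate 1 at 6 h and to 5 without treated replicate 2 at 6 h, and was 1 without treated replicate 2 or 3 at 24 h. For 24 h against 6 h in control cells it was 2 without control replicate 2 at 6 h and 3 without control replicate 3 at 6 h. In treated cells it was 3 without control replicate 2 at 6 h or control replicate 1 at 24 h and 2 without treated replicate 3 at 6 h. The interaction count of 8 rose to 12 without treated replicate 1 at 24 h. It was 1 without control replicate 2 at 6 h and 3 without treated replicate 2 at 24 h. It was 4 without control replicate 3 or treated replicate 1 or 2 at 6 h or control replicate 1 or 2 at 24 h, and 5 without control replicate 1 at 6 h or treated replicate 3 at 24 h. The number of stable genes itself was steadier, between 73 and 87 when any library was left out, and 66 to 74 of the 77 were chosen again each time.

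At the edge of the rule, KLC1 (range 0.147), LEMD3 (0.149) and ENSSSCG00000037510 (0.149) were the last inside. Just outside stood ANKRD13A (0.15), STK10 (0.15) and PPP1CB (0.151). KLC1 had 87.7, 87.8 and 95.9 TPM without and 94.3, 104 and 103 TPM with deoxyshikonin at 24 h, with overlap. PPP1CB, a catalytic subunit of protein phosphatase, had 125, 131 and 124 TPM without and 108, 118 and 117 TPM with deoxyshikonin at 24 h, without overlap. A range under 0.20 would have given 169 genes and a range under 0.10 would have given 27.

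Among the small differences that remained, control cells at 6 h were most often the highest and control cells at 24 h most often the lowest. The highest group mean was that of control cells at 6 h in 32 of the 77 genes, treated cells at 6 h in 17, treated cells at 24 h in 15 and control cells at 24 h in 13. The lowest was that of control cells at 24 h in 33, treated cells at 24 h in 18, treated cells at 6 h in 14 and control cells at 6 h in 12. Over the whole window the highest was control cells at 6 h in 32.3% of genes, treated cells at 6 h in 28.7%, treated cells at 24 h in 23.8% and control cells at 24 h in 15.1%. The lowest there was treated cells at 6 h in 44.3%, control cells at 24 h in 28.5%, control cells at 6 h in 14.4% and treated cells at 24 h in 12.8%. By library, the median deviation of the 77 genes from their means lay between -0.05, in replicate 1 of treated cells at 24 h, and 0.03, in replicate 2 of control cells at 6 h. Together they made up 0.635% to 0.669% of all TPM in a library. Their summed TPM was 6592 ± 47.4 in control and 6616 ± 72.3 in treated cells at 6 h, and 6526 ± 49.9 and 6553 ± 183 at 24 h (SD, n = 3), where replicate 1 of the treated cells had 6346 and the others 6619 and 6695.

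Which genes count as stable depended on the scaling of the libraries. Over all tested genes the median change between treated and control cells at 6 h was -0.20 with TPM as deposited, so a gene level in TPM stood above the median gene. Rescaling each library by the median of its ratios to the average library, over 7459 genes with a mean of at least 10 TPM and no 0, moved that median to -0.07. The scaling factors by which TPM was divided ran from 1.04 to 1.06 in controls and from 0.92 to 0.96 in treated cells at 6 h, and from 0.96 to 0.99 and from 1.00 to 1.05 at 24 h. Relative to the median of all tested genes, the stable genes had a median difference of 0.19 at 6 h with TPM as deposited and 0.21 after rescaling. At 24 h it was -0.06 under both.

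After rescaling the stable genes all leaned the same way at 6 h. Their median difference between treated and control cells was -0.01 with TPM as deposited (30 genes above 0, 47 below) and 0.14 after rescaling (77 above, 0 below). This follows from the rule, which held the deposited differences under 0.15, and from the factors, which shift every gene of a library alike. At 24 h the median went from 0.03 (49 above, 28 below) to -0.05 (17 above, 60 below). Between 24 h and 6 h it went from -0.03 to 0.07 in control cells and from 0.01 to -0.12 in treated cells. With these values limma called 44 of the 77 genes at 6 h, all higher, beside 75.2% of tested genes, with 34.3% higher. The fit called 14 at 24 h, all lower, beside 49.1%, with 24.7% lower. The interaction was called in 43, all more negative at 24 h, beside 60.9%, with 29.2% negative. Between 24 h and 6 h, 18 were called in control cells, all higher, beside 56.5%, with 30.3% higher. In treated cells 41 were called, all lower, beside 75.7%, with 35.5% lower. After quantile normalization the counts were 23 at 6 h, 12 at 24 h, 27 in the interaction, 17 over time in controls and 24 over time in treated cells, beside 74.8%, 50.2%, 59.9%, 56.1% and 75% of tested genes. Since the rule and the scaling set these counts and their direction, nothing is read from the gap to the shares. The direction of the small differences of these genes thus depended on the scaling.

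**Figure D5:**
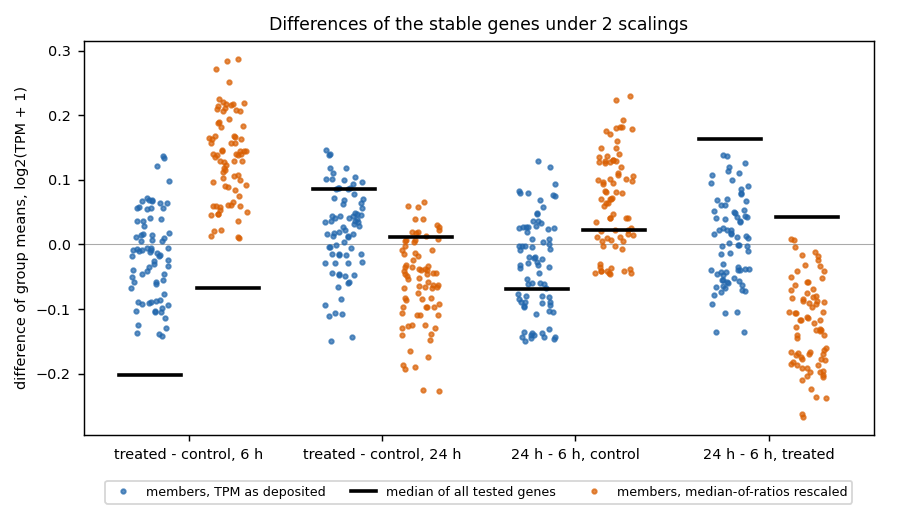
Differences between group means of log2(TPM + 1) for the 77 stable genes (points), before and after median-of-ratios rescaling, in 4 comparisons, and the median of all 11897 tested genes as thick bars. At 6 h the deposited values straddle 0 (median -0.01) and the rescaled values all lie above it (median 0.14), while the thick bar moves from -0.20 to -0.07.

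The rule applied to rescaled values gave 94 genes, of which 30 were among the 77. The shared genes are 39.0% of the 77 and 31.9% of the 94. Quantile normalization gave 100 genes, 46 of them among the 77, and all 30 genes that stayed after median-of-ratios rescaling stayed here too. The other 47 had a range of at least 0.15 after median-of-ratios rescaling, up to 0.29 for PGRMC1, and the median range of the 77 was 0.18. A range under 0.15 under all 3 scalings was thus kept by these 30 genes, in ascending order of their range after median-of-ratios rescaling: FAM204A, FLCN, MSL1, DMP1, PISD, FUBP3, PPFIBP1, ATF1, MRPL30, BECN1, CMPK1, LAMTOR5, PRPF31, AKT1S1, RBCK1, MEX3C, ZMPSTE24, AP2S1, KLC1, TENT2, CPSF3, TMEM248, NCKAP1, MYO5A, STK24, PRKCI, RHPN2, YIPF1, MAP2K4 and EMC2. By role they are 6 of the 10 signalling genes, 5 of the 8 of cytoskeleton and motors, 5 of the 10 of RNA processing, 3 of the 7 of protein quality control and proteolysis, 3 of the 6 left outside the groups and 3 of the 13 of membrane traffic and the endoplasmic reticulum. The others are 2 of the 5 of transcription and chromatin, 2 of the 5 of lipids, nucleotides and DNA, and 1 of the 4 ribosomal genes. Of the 9 genes without a symbol, 0 stayed. These role groups were formed after the genes were known, and their shares were not compared by a test.

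Among these 30, RHPN2 and YIPF1 moved close to the threshold, with ranges of 0.144 and 0.145 after rescaling, and RBCK1 and NCKAP1 had 0.107 and 0.132. MIER1 and BAG6 did not stay, with 0.18 and 0.19. The smallest ranges after rescaling were those of FAM204A (0.05), FLCN (0.05) and MSL1 (0.05), which had 0.14, 0.10 and 0.10 with TPM as deposited. FLCN had 88.9, 95.7 and 93.8 TPM without and 88.9, 83.2 and 86.9 TPM with deoxyshikonin at 6 h, and 90.9, 83.6 and 87.2 TPM and 91.8, 90.9 and 94.98 TPM at 24 h. Its deposited values overlap between treated and control cells at 6 h and are just without overlap at 24 h. Of the classical reference genes, 0 had a range under 0.15 after rescaling as well, and the smallest was 0.18, for SDHA.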

How the data were processed

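The authors deposited a table of TPM with 2 decimals for 12 libraries. The submitters' processing notes name fastp, HISAT and RSEM without versions. Genome build and annotation are not given in the sources used here, so no coordinates or sequences are printed. Groups and replicate numbers came from the sample titles, and 0 columns were unmapped. Symbols were found for 15029 of 32518 identifiers.

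Values were analysed as log2(TPM + 1). Genes with a mean of at least 1 TPM were fitted with limma 3.58.1 in R 4.3.3 (lmFit, contrasts, eBayes with trend, Benjamini-Hochberg, threshold 0.05, all 4 groups, 8 residual degrees of freedom). The procedure was tested on simulated data. The alternatives were other pseudocounts, filters, scalings, thresholds and windows, a group median, a replicate block, a prior without trend, a fit of the compared groups, and leaving out each library.

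The members and lists were chosen with earlier results of these data known. Named were members with the 8 smallest ranges, 3 just inside and 3 just outside the threshold, the 4 most abundant, the 3 smallest and 3 largest replicate SDs, the 3 called in most tests and all on a list. Other names, the role groups and their examples were chosen after values were seen. Some genes that this rule names are not reported here.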

Additional observations from a re-analysis of the deposited data

Results flagged for a closer look

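In 8 of the 77 stable genes the treatment effect differed between 24 h and 6 h by the interaction term of the limma fit (adjusted p-value under 0.05), beside 63% of all tested genes. The rule that chose the genes limited this difference, and 9 of the 12 fits without a library moved the count by more than 1.5 times, so it is given as values only. The effect at 24 h minus that at 6 h was 0.28 (SE 0.08) for PISD, 0.25 (SE 0.09) for DMP1, 0.19 (SE 0.06) for FLCN, 0.18 (SE 0.07) for FUBP3, 0.17 (SE 0.07) for KLC1 and 0.17 (SE 0.07) for PRPF31. It was -0.19 (SE 0.06) for RPS27A and -0.12 (SE 0.05) for PGRMC1. After median-of-ratios rescaling 43 of the 77 genes had an interaction, all negative, and the 6 genes with a positive one were then no longer called.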

How the results depend on the processing

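The number of stable genes, 77, was 76 with a pseudocount of 0.1, 80 with group medians, 100 after quantile normalization and 94 after median-of-ratios rescaling, but the genes shared with the 77 were 76, 63, 46 and 30. It was 27 with a range under 0.10, 169 with a range under 0.20 and 128 with a window of 5 to 500 TPM. Leaving out each library gave 73 to 87. The counts of stable genes called at 6 h, at 24 h, in the interaction, in control time and in treated time were 5, 2, 8, 7 and 5. Median-of-ratios rescaling gave 44, 14, 43, 18 and 41, and quantile normalization 23, 12, 27, 17 and 24. With no filter they were 3 at 6 h, 3 in the interaction, 4 in control time and 3 in treated time. Of the 24533 genes then tested, 10039, 7676, 6464 and 10166 were called in these comparisons. Without a trend 4 stable genes were called in the interaction and 3 in treated time, beside 7512 and 8915 of 11897. With only the compared groups 1 was called at 24 h, beside 5147 of 11897. That gene was not among the 2 called in the main fit. Fitting only the compared groups could not be done for the interaction. Leaving out each library gave 1 to 7, 1 to 5, 1 to 12, 2 to 8 and 2 to 6. In count the other alternatives stayed within 1.5 times, but the genes called could differ. Same-numbered libraries deviated from their group means with correlations from -0.117 to 0.109 across genes, with 1 of 18 above 0.1. In 11 of these 18 the best match was the same number, among them every comparison with treated cells at 6 h. Whether the numbers pair the libraries cannot be told from these values. With the replicate block the counts were 5, 3, 6, 9 and 5, beside 8955, 5843, 7397, 6572 and 8849 of 11897 tested genes. Of these stable genes, 3, 2, 5, 6 and 4 were also called in the main fit. For the 24 named stable genes the range moved by less than the replicate SD in 24 with a pseudocount of 0.1, in 15 after quantile normalization, in 8 after median-of-ratios rescaling and in 287 of 288 fits without a library. TPM carries no depth, so counting error is unknown.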
